A study of Mus musculus with 40 samples.

Results

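Livers of ovariectomized female mice that carried a placebo pellet were compared with livers of ovary-intact females of the same inbred strain, C57BL/6J. The comparison was chosen by the labels and takes 10 of the 40 arrays of the series, 5 from ovariectomized females with placebo (animals 16 to 20) and 5 from intact females (animals 1 to 5), over all 23574 probes. Ovaries were removed at 8 weeks of age and the placebo pellet was placed at 12 weeks. All mice were killed at 14 weeks, having fasted for 12 h, and were kept on chow with 4% fat. Groups given beside them for context, each of 5 animals of the same age and diet, were ovariectomized females with a pellet of 0.5 mg estradiol, ovariectomized females with 5 mg dihydrotestosterone (DHT), castrated males with placebo, and intact males. The labels name no sham surgery and no pellet for the intact females, so the loss of the ovaries, the operation and the pellet cannot be told apart here. They also give no stage of the estrous cycle and no hour of collection.

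The ovary is the main source of circulating estradiol and progesterone in females. In the liver, estradiol acts mainly through estrogen receptor alpha, a nuclear receptor encoded by Esr1, and affects lipid synthesis, carrier proteins of the blood and the response to insulin. Many sex differences of the mouse liver follow from the pattern of growth hormone release by the pituitary, which is pulsed in males and nearly steady in females. Liver RNA also follows the circadian clock, in which the factors encoded by Arntl (BMAL1) and Clock switch on their own repressors, and it follows fasting, insulin and glucocorticoids.

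Each array compared a liver, in Cy5, with a pool made of equal portions of RNA from the samples, in Cy3. Values are log2 ratios to that pool, so 0 is the level of the pool, and a difference is the mean of ovariectomized placebo females minus the mean of intact females. All 20 female livers of the series lay below all 20 male livers for the Y-linked genes Eif2s3y and Kdm5d. The interquartile range of the log2 ratios was 0.160 to 0.218 on the ovariectomized placebo arrays and 0.164 to 0.305 on the intact arrays, where animal 3 had the highest value. Animal 20 of the placebo group stood apart from its 4 group mates in several of the genes described here, and values without it are given where they change a call. Of the other groups, animal 53 of the DHT group had -3.87 for Hsd3b5, a male-biased steroid enzyme gene, against -0.22 to 1.38 in its 4 group mates. Cyp7b1, an oxysterol hydroxylase gene, was at -2.57 and -2.92 in estradiol animals 33 and 34 and at 0.84 to 1.35 in the other 3.

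Of the 23574 probes, 8 passed an adjusted p under 0.05 in limma (0.0339%), 3 of them higher (0.0127%) and 5 lower (0.0212%) in ovariectomized placebo livers. These probes belong to the genes Cdkn1a, Emb, Pdk4 and Btg1, which fell, and Nr1d1, Sp5 and Tbc1d10a, which rose, with 1 unnamed probe that fell by 0.83 (adjusted p = 0.0387). At an unadjusted p under 0.05 there were 1190 probes (5.05%), 724 higher (3.07%) and 466 lower (1.98%). In 261 probes (1.11%) the 5 animals of each group did not overlap, with the ovariectomized animals above in 146 (0.619%) and below in 115 (0.488%). The difference reached 1.5-fold in 98 probes and 2-fold in 22. The median half-width of a probe's 95% confidence interval was 0.186 on the log2 scale. With 5 animals a group, this is the limit for an unadjusted p of 0.05 at a probe of median spread. A call needed a larger difference, because the largest unadjusted limma p among the called probes was 1.54e-05. The smallest called difference was 0.56 in size, that of Btg1. In bulk liver, fewer cells of a type and less RNA per cell cannot be told apart.

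Cdkn1a, which encodes the cyclin-dependent kinase inhibitor p21, had the smallest p of all probes. Its log2 ratio was -0.84, -0.68, -0.51, -0.40 and -0.05 in the ovariectomized placebo livers, against 0.75, 0.87, 1.37, 1.38 and 1.77 in the intact livers. Every ovariectomized animal lay below the pool and every intact animal above it. The gene fell by 1.72 ± 0.25 (SE), or 3.3-fold, with a limma adjusted p of 0.00145. Its adjusted p stayed under 0.05 in all 10 fits that left out 1 animal, between 0.00109 and 0.0147.

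Transcription of Cdkn1a is best known to be switched on by the tumour suppressor p53, and the region before its start is shown because this gene moved most. The RefSeq promoter table (GRCm38.p6) gives for the first of its 2 listed starts the 250 bases at chr17:29090729-29090978, on the plus strand, and capitals mark a match to a paired p53 element (2 copies of ACATGT with any 4 bases between them) at bases -49 to -34 from the start.
Cdkn1a: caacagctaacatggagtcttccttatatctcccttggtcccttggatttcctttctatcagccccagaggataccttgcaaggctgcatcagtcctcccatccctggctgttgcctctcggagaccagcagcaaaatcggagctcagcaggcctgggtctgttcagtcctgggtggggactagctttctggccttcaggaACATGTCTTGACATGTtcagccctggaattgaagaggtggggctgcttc
Both strands were searched, and 0.0122% of 32851 such windows of 27025 genes hold the element. The motifs searched here were chosen with the genes' differences known, and a match is a description of the sequence.

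Other genes of growth arrest and the p53 response did not share one direction. Of 21 such genes measured, limma called Cdkn1a and Btg1 lower and none higher. At an unadjusted p under 0.05, 4 were lower and 1 was higher, against 1.98% and 3.07% of all probes. The list's median difference was -0.04, against -0.01 over all probes. Btg1, an antiproliferative gene, lay at 0.00, 0.01, 0.08, 0.12 and 0.33 in ovariectomized placebo livers, against 0.43, 0.58, 0.71, 0.78 and 0.87 in intact livers. The groups did not overlap, and Btg1 fell by 0.56 ± 0.11 (limma adjusted p = 0.0387). Without animal 20 the gene no longer passed (-0.54, adjusted p = 0.0544). A second Btg1 probe also separated the groups, by -0.24 with an adjusted p of 0.353. Gadd45a, a stress-induced growth arrest gene, ran the other way, at -0.62, 0.47, 0.54, 0.63 and 1.31 in ovariectomized placebo livers, against -1.49, -0.94, -0.90, -0.72 and -0.60 in intact livers. Its difference of 1.40 ± 0.29 had an adjusted p of 0.0564, and animal 20 was the only placebo animal that overlapped with the intact range. Without that animal Gadd45a rose by 1.67 (adjusted p = 0.00624). Gadd45a passed in only 1 of the 10 limma fits that left out 1 animal, with a highest adjusted p of 0.372. Its relative Gadd45b differed by -1.10 and the p53 target Trp53inp1 by -0.94, with overlapping animals and adjusted p values of 0.334 and 0.636. In the list of 24 cell cycle genes, 0 were called by limma, and 1 was lower at an unadjusted p under 0.05, with differences between -0.28 and 0.16.

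Emb encodes embigin, a membrane glycoprotein that accompanies monocarboxylate transporters. Its log2 ratio was -0.18, -0.06, 0.07, 0.11 and 0.17 in ovariectomized placebo livers, against 0.48, 0.72, 0.81, 0.86 and 1.29 in intact livers. No animal of either group entered the range of the other. Emb fell by 0.81 ± 0.12, or 1.75-fold (limma adjusted p = 0.00146), and was called in all 10 fits that left out 1 animal. With only the 2 groups in the fit its adjusted p was 0.0881.

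Sp5, a zinc finger transcription factor gene known as a target of Wnt signalling, lay at 0.07, 0.31, 0.41, 0.50 and 0.51 in ovariectomized placebo livers, against -0.95, -0.43, -0.34, -0.30 and -0.30 in intact livers. Tbc1d10a, which encodes a GTPase-activating protein for Rab proteins, lay at 0.00, 0.02, 0.37, 0.41 and 0.50 in ovariectomized placebo livers, against -0.95, -0.57, -0.52, -0.38 and -0.14 in intact livers. Neither gene's groups overlapped. Sp5 rose by 0.82 ± 0.16 (limma adjusted p = 0.0454), and Tbc1d10a by 0.77 ± 0.15 (limma adjusted p = 0.0387). In fits that left out 1 animal, Sp5 passed in 1 of 10 and Btg1 in 2 of 10, while Tbc1d10a, Nr1d1 and Pdk4 passed in 3 of 10 each. Their highest adjusted p values in these fits lay between 0.246 and 0.259, with calls lost for all 5 genes without animal 1, 2, 4, 16, 17 or 19. Calls were also lost without animal 3 for all of them but Pdk4, without animal 18 for Sp5 and Pdk4, without animal 5 for Sp5 and without animal 20 for Btg1. All 5 kept their sign and an unadjusted p under 0.05 in each of the 10.

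**Figure D1:**
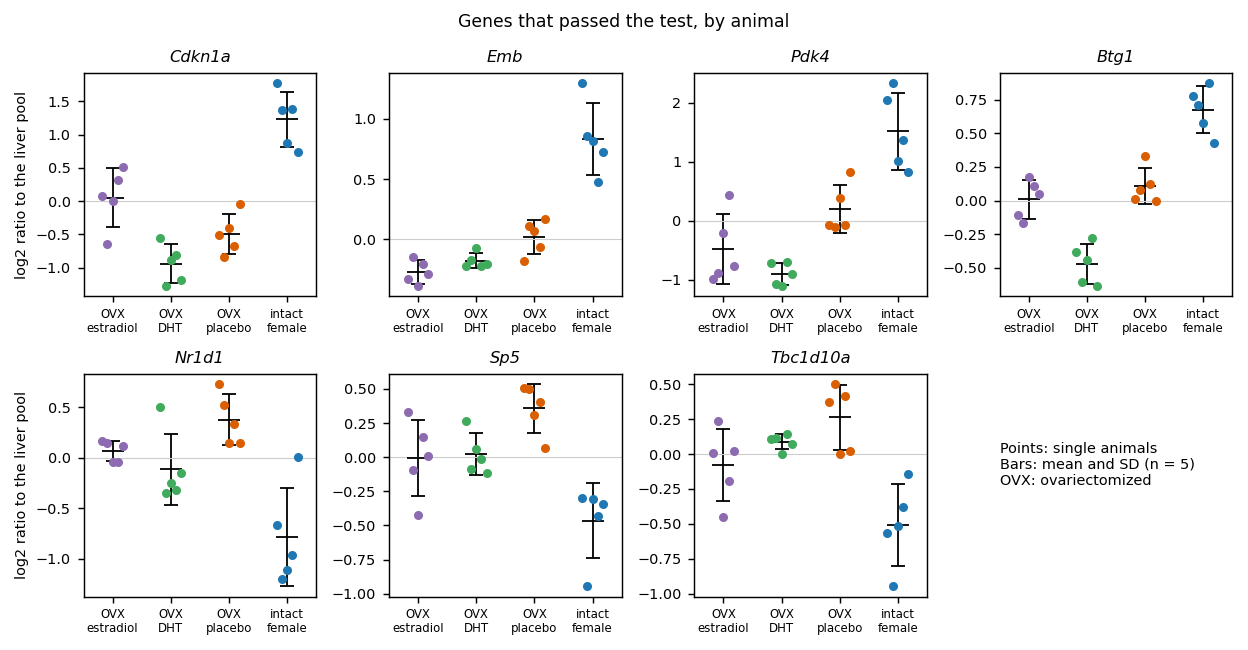
Log2 ratio to the liver pool for the 7 named genes that passed the test, in ovariectomized (OVX) females with estradiol, DHT or placebo and in intact females. Points are single animals and bars give the mean and SD (n = 5 a group). In Cdkn1a, Emb and Btg1 all 15 ovariectomized animals lie below all 5 intact ones, and in Pdk4 14 of 15 do.

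Ovariectomized females with a hormone pellet gave further livers from animals without ovaries, set here beside the same intact animals. Cdkn1a lay at -0.64 to 0.52 in estradiol livers, at -1.28 to -0.56 in DHT livers and at -0.84 to -0.05 in placebo livers, against 0.75 to 1.77 in intact livers. For Emb the ranges were -0.39 to -0.14 with estradiol, -0.22 to -0.07 with DHT and -0.18 to 0.17 with placebo, against 0.48 to 1.29 in intact livers. Of the 8 probes, 6 were called between estradiol and intact females, where 445 of all probes were called (1.89%), and 6 between DHT and intact females, where 642 were (2.72%). Without estradiol animals 33 and 34 the count against intact females was 5 of the 8, and without DHT animal 53 it was again 6. Between estradiol and placebo, 0 of the 8 were called, both over all animals and without animals 33 and 34, while limma called 149 of all probes (0.632%) over all animals and 1608 without those 2. For Cdkn1a the difference of estradiol from placebo was 0.55 (adjusted p = 0.411), and for Pdk4 it was -0.68 (adjusted p = 0.246). In 20 of all probes (0.0848%) all 15 ovariectomized animals lay below all 5 intact females, and in 18 (0.0764%) they lay above. The first set included Cdkn1a, Emb, Btg1, Arntl, Angptl4, Irs2, Igfbp1, Nfil3, Hilpda, Defb1 and Clpx, and the second S1pr5, Fbxl8 and Cdkn2d. These 3 comparisons share the intact females.

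Among genes of the circadian clock, the repressor gene Nr1d1 rose, and the activator gene Arntl was lower in every ovariectomized animal without passing the test over all 10. Nr1d1 encodes the nuclear receptor REV-ERB alpha, which represses Arntl. Its log2 ratio was 0.14, 0.14, 0.34, 0.52 and 0.73 in ovariectomized placebo livers, against -1.20, -1.10, -0.97, -0.66 and 0.01 in intact livers. The groups did not overlap, although intact animal 5 lay close to the placebo range. Nr1d1 rose by 1.16 ± 0.22, or 2.23-fold, with a limma adjusted p of 0.0387.

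Arntl lay at -0.48, -0.35, -0.27, -0.16 and 0.73 in ovariectomized placebo livers, against 0.88, 1.01, 1.09, 1.13 and 1.22 in intact livers. Animal 20 held the value of 0.73, far above its 4 group mates and still below every intact animal. The difference of -1.17 ± 0.26 had an adjusted p of 0.0958, and without animal 20 it was -1.38 with an adjusted p of 0.0148. Arntl passed in only 1 of the 10 limma fits that left out 1 animal, with a highest adjusted p of 0.478. Nfil3, a repressor of clock output genes whose RNA cycles in phase with Arntl, differed by -0.58 without overlap, with an adjusted p of 0.569. Clock lay at -0.15 to -0.02 in ovariectomized placebo livers, against 0.02 to 0.15 in intact livers, and differed by -0.14 (adjusted p = 0.633).

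Among the repressors, Bhlhe40, which encodes the E-box repressor DEC1, lay at -0.11, 0.30, 0.41, 0.71 and 0.71 in ovariectomized placebo livers, against -1.09, -1.08, -0.96, -0.70 and -0.39 in intact livers. The groups did not overlap, and the difference of 1.25 ± 0.26 had an adjusted p of 0.0564. Nr1d2, which encodes REV-ERB beta, differed by 0.75 ± 0.17 without overlap, with an adjusted p of 0.0958, while a second Nr1d2 probe differed by 0.04. Per2, a core repressor, was at -1.34, -0.31, -0.04, 0.10 and 0.30 in ovariectomized placebo livers, against -1.74, -1.51, -1.25, -0.96 and -0.96 in intact livers. Its lowest placebo value, the only one inside the intact range, was again that of animal 20, and the difference of 1.03 ± 0.30 had an adjusted p of 0.34. Without animal 20, limma also called Bhlhe40 (adjusted p = 0.0193) and Nr1d2 (adjusted p = 0.0492). Bhlhe40 passed in 2 and Nr1d2 in 1 of the 10 fits that left out 1 animal. Their highest adjusted p values in these fits were 0.308 and 0.377. Without animals 20 and 3 together, a setting chosen after the values were seen, Nr1d1 (adjusted p = 0.06), Bhlhe40 (0.0559) and Nr1d2 (0.124) did not pass, and Arntl did (adjusted p = 0.044).

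Of the 12 genes on the list of repressors and outputs, 1 was called, and 5 were higher and 0 lower at an unadjusted p under 0.05, with a median of 0.14. The other 7 lay between -0.07 and 0.16, among them Dbp at 0.16, Bhlhe41 at 0.13 and Per3 at -0.07. Usp2, a deubiquitinase gene under clock control, was the fifth, at 0.32 with overlapping animals. Of the 7 genes of the activator list, 0 were called and 3 were lower at an unadjusted p under 0.05, with a median of -0.10, and Cry1 was at -0.10. Nfil3 and Cry1, which encode repressors, are on this list, so its name does not give the role of each member. Beside both lists, 3.07% of all probes were higher and 1.98% lower at an unadjusted p under 0.05. The mean log2 ratio over the 12 repressor and output genes was -0.18 to 0.17 in ovariectomized placebo animals, against -0.50 to -0.23 in intact animals. Because the labels give no hour of collection for either group, its part in these values was not tested.

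**Figure D2:**
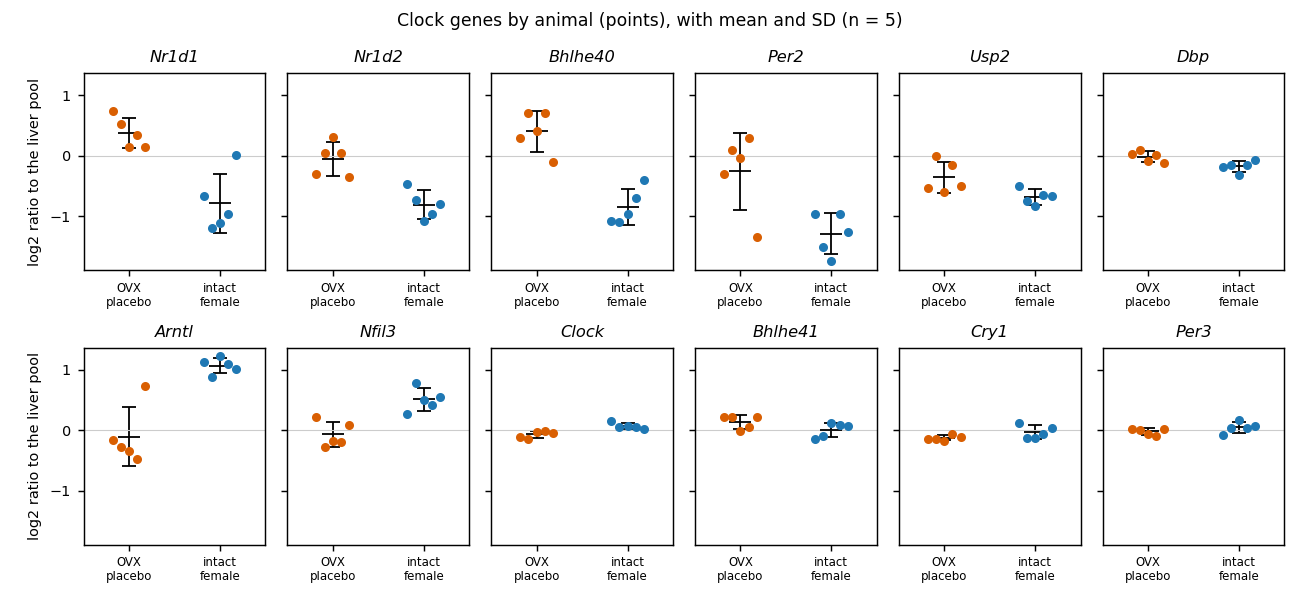
Log2 ratio to the liver pool of 12 clock genes in ovariectomized (OVX) placebo and intact females, on a shared axis. Points are single animals and bars give the mean and SD (n = 5 a group). Nr1d1, Nr1d2 and Bhlhe40 lie higher and Arntl, Nfil3 and Clock lower in all 5 ovariectomized animals than in any intact one, and the differences of Dbp, Bhlhe41, Cry1 and Per3 are at most 0.16 in size.

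The clock arms act on each other through short sequences near gene starts, and matches to such sequences at Nr1d1 and Arntl are shown for that reason. BMAL1 and CLOCK bind E-boxes, and REV-ERB proteins bind ROR elements. The 250 bases before the start of Nr1d1 (RefSeq, GRCm38.p6, minus strand, chr11:98775378-98775627) hold 1 match to CACGTT, a variant E-box, at bases -28 to -23, which reads AACGTG on this strand and is in capitals.
Nr1d1: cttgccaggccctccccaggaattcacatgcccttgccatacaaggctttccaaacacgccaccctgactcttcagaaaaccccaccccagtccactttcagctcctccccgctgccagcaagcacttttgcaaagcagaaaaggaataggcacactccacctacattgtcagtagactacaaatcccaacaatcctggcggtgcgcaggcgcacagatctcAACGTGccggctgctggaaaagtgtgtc
Around the second of the 2 listed starts of Arntl, on the plus strand, lie 2 matches to the ROR element AAAGTAGGT. The stretches shown, of 24 bases each, are chr7:113207493-113207516 and chr7:113207529-113207552. The matches within them, in capitals, lie at bases -10 to -2 and 27 to 35 from that start.
Arntl site 1: ttggtcggAAAGTAGGTtagtggt
Arntl site 2: gaaggcagAAAGTAGGTcagggac
The Nr1d1 window holds 0 matches to the full E-box CACGTG. On both strands, CACGTT occurs in 3.85% of the 32851 windows, CACGTG in 6.02% and AAAGTAGGT in 0.164%. These windows are the 250 bases before a start, so the last share does not cover Arntl site 2, which lies after the start. Whether any of these sites acts in these livers was not tested.

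Among genes known to rise in the fasted liver, Pdk4 fell in ovariectomized females, and all animals had been fasted. Pdk4 encodes the pyruvate dehydrogenase kinase that spares glucose in fasting. It lay at -0.11, -0.07, -0.07, 0.38 and 0.83 in ovariectomized placebo livers, against 0.82, 1.01, 1.37, 2.04 and 2.33 in intact livers. The value of 0.83, that of animal 20, overlapped with the intact range. Pdk4 fell by 1.32 ± 0.25, or 2.5-fold, with a limma adjusted p of 0.0387. Angptl4, a fasting-induced inhibitor of lipoprotein lipase, was at -0.42, -0.28, -0.16, 0.04 and 0.32 in ovariectomized placebo livers, against 0.56, 0.56, 0.57, 0.72 and 0.80 in intact livers. Its groups did not overlap, and its difference of -0.75 ± 0.16 had an adjusted p of 0.0604. Hilpda, a lipid droplet protein gene induced by low oxygen and by fatty acids, differed by -0.44 ± 0.10 without overlap, with an adjusted p of 0.0687. Both genes were called without animal 20, Angptl4 at -0.85 and Hilpda at -0.49, with adjusted p values of 0.0148 and 0.0242. Each passed in only 1 of the 10 limma fits that left out 1 animal, with highest adjusted p values of 0.372 and 0.495.

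On the list of 23 genes of fatty acid oxidation and fasting, 1 was called. At an unadjusted p under 0.05, 5 were lower and 1 was higher, against 1.98% and 3.07% of all probes. The list's median difference was -0.03. Fgf21, a fasting hormone gene, was at -0.28 (adjusted p = 0.577), while Vldlr, a lipoprotein receptor gene, was at 0.47 (adjusted p = 0.645). Ppara, which encodes the fatty acid sensor that drives the fasting response, differed by 0.32 (adjusted p = 0.993). The 17 genes above an unadjusted p of 0.05 lay between -0.25 and 0.32.

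Irs2 and Igfbp1, which insulin represses, separated the groups without passing the test. Irs2, which encodes an insulin receptor substrate, lay at -0.61, -0.44, -0.41, 0.17 and 0.59 in ovariectomized placebo livers, against 0.64, 0.92, 1.28, 1.28 and 1.45 in intact livers. The difference of -1.25 ± 0.30 had an adjusted p of 0.157, and a second Irs2 probe differed by -0.21 with overlapping animals. Igfbp1, an insulin-repressed binding protein gene for insulin-like growth factors, was at -0.91, -0.66, -0.64, -0.61 and 0.08 in ovariectomized placebo livers, against 0.44, 0.61, 0.68, 0.72 and 1.85 in intact livers. Its difference of -1.41 ± 0.49 had an adjusted p of 0.591, and no animals overlapped. G6pc, which encodes the glucose-6-phosphatase of glucose release, differed by -0.52 (adjusted p = 1), and animal 20 lay at 0.87, inside the intact range, while its 4 group mates lay at -0.10 to 0.09. Of 16 genes of glucose output and insulin response, 0 were called by limma, with 0 higher and 2 lower at an unadjusted p under 0.05. Among all probes 3.07% were higher and 1.98% lower. The list's median was -0.07, 5 of the 16 lay above 0, and the 14 other than Irs2 and Igfbp1 lay between -0.52 and 0.29.

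Genes of sterol synthesis leaned upward in ovariectomized females. Insig1, which encodes the sterol sensor that holds back SREBP activation and is itself an SREBP target, lay at -0.82, -0.19, -0.11, 0.14 and 0.73 in ovariectomized placebo livers, against -1.50, -1.48, -1.19, -0.90 and -0.54 in intact livers. Animal 20, at -0.82, was the only placebo animal inside the intact range. The difference of 1.07 ± 0.24 had an adjusted p of 0.0913, and without animal 20 it was 1.27 with an adjusted p of 0.0148. Insig1 passed in only 1 of the 10 limma fits that left out 1 animal, with a highest adjusted p of 0.476. Without animals 20 and 3 together Insig1 did not pass (adjusted p = 0.051). Fdft1, which encodes squalene synthase, was at -0.95, -0.11, 0.10, 0.14 and 0.17 in ovariectomized placebo livers, against -1.22, -1.07, -1.05, -0.83 and -0.25 in intact livers. Its difference of 0.75 ± 0.23 had an adjusted p of 0.42, and the lowest placebo value was again that of animal 20. Sqle, squalene epoxidase, differed by 0.93 ± 0.38 and the sterol carrier gene Stard4 by 0.32 ± 0.10, with adjusted p values of 0.844 and 0.491. The probe that stands for Fdps, farnesyl diphosphate synthase, differed by 0.53, and 3 further Fdps probes by 0.34, 0.13 and -0.08. Of 16 genes of cholesterol synthesis and uptake, 0 were called by limma, while 6 were higher and 0 lower at an unadjusted p under 0.05. Over all probes the shares were 3.07% higher and 1.98% lower. The 6 became 3 without intact animal 1 or without placebo animal 18. The median difference of the 16 genes was 0.24, against -0.01 over all probes. Above 0 lay 15 of the 16, against 10681 of all 23574 probes.

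Fatty acid synthesis genes leaned the same way, and again none passed. Fasn, fatty acid synthase, lay at 0.23, 0.23, 0.31, 0.49 and 0.71 in ovariectomized placebo livers, against -0.54, -0.39, -0.18, -0.05 and 0.18 in intact livers. These groups did not overlap, but the difference of 0.59 ± 0.21 had an adjusted p of 0.638. The regulator genes Srebf1 and Mlxipl (ChREBP) differed by 0.58 and 0.45, with adjusted p values of 0.812 and 0.569. Thrsp, a lipogenic gene induced by thyroid hormone and feeding, differed by 0.73 and Acss2, an acetyl-CoA synthetase gene, by 0.44, with adjusted p values of 0.873 and 0.827. Of 17 genes of the list, 0 were called by limma, and 7 were higher and 0 lower at an unadjusted p under 0.05, with a median of 0.21. The shares over all probes were 3.07% higher and 1.98% lower, with a median of -0.01. The 7 became 2 without placebo animal 19, 3 without intact animal 2 and 4 without intact animal 3. The mean over the 17 genes was 0.12 to 0.29 in ovariectomized placebo animals, against -0.26 to 0.05 in intact animals.

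**Figure D3:**
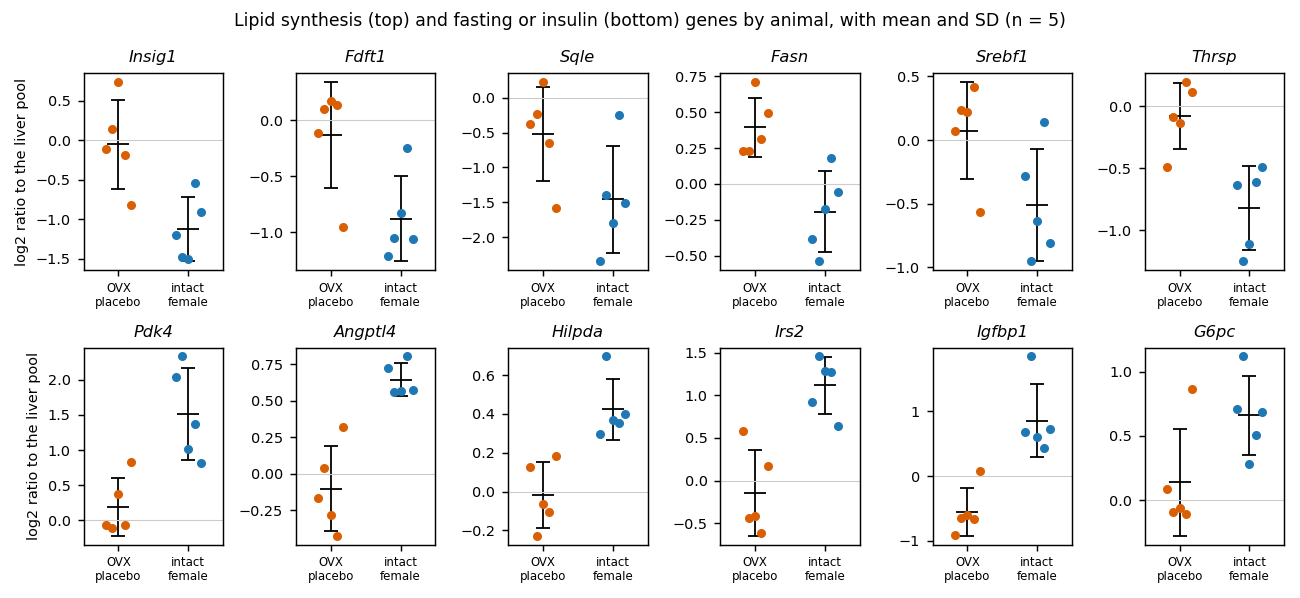
Log2 ratio to the liver pool of lipid synthesis genes (top row) and of genes of fasting or insulin response (bottom row) in ovariectomized (OVX) placebo and intact females. Points are single animals and bars give the mean and SD (n = 5 a group). Of the 12 genes, Pdk4 passed the test, and Fasn, Angptl4, Hilpda, Irs2 and Igfbp1 show groups that do not overlap.

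Among genes that respond to glucocorticoids, the adrenal steroids, 13 had negative and 6 positive differences. The list does not separate induced from repressed genes, so these signs do not give a direction of response. Serpina6, which encodes the carrier of corticosteroids in blood, lay at 0.36, 0.80, 0.92, 1.04 and 1.10 in ovariectomized placebo livers, against -0.59, -0.54, -0.48, -0.06 and 0.11 in intact livers. The groups did not overlap, and its difference of 1.16 ± 0.29 had an adjusted p of 0.225. Cebpd, a glucocorticoid-induced transcription factor gene, was at -1.04, -0.85, -0.82, -0.60 and -0.55 in ovariectomized placebo livers, against -0.57, 0.24, 0.55, 0.56 and 0.69 in intact livers. Intact animal 3 held the value of -0.57, which overlapped with the placebo range. The difference of -1.07 ± 0.25 had an adjusted p of 0.171, and a second Cebpd probe differed by 0.12. Tsc22d3 (GILZ), a classic glucocorticoid target, differed by -0.71 ± 0.19 (adjusted p = 0.271). The receptor gene Nr3c1 differed by 0.04. Of 19 genes on the list, Cdkn1a was called, and 5 were lower and 1 higher at an unadjusted p under 0.05, with a median of -0.20. Among all probes 1.98% were lower and 3.07% higher. Without animals 20 and 3 together, 3 of the 19 were called, with Cebpd at -1.32 (adjusted p = 0.0385) and Gadd45b at -1.56 (adjusted p = 0.0383), while Btg1 of the growth arrest genes lost its call there (adjusted p = 0.0738).

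Among genes known to respond to estrogen in liver, 12 had positive and 18 negative differences. The list does not separate genes that estradiol raises from genes that it lowers, and its median difference of estradiol from placebo was -0.006. A median near 0 after ovariectomy therefore does not give a direction of response. The list holds genes taken from earlier results of these data, so its counts are not independent evidence of a direction. Of 30 genes measured, 0 were called by limma, with 3 higher and 1 lower at an unadjusted p under 0.05 and a median of -0.03. Over all probes 0.0339% were called, and 3.07% were higher and 1.98% lower at the unadjusted threshold. The 3 higher were Serpina6 and the carbonic anhydrase genes Car3 and Car1, and the lower was Igfbp1. The 3 became 1 without intact animal 2 or without placebo animal 19. Car3 lay at -0.28, -0.10, 0.38, 0.40 and 0.69 in ovariectomized placebo livers, against -0.83, -0.59, -0.41, -0.33 and -0.30 in intact livers. The groups came close without overlap, and the difference of 0.71 had an adjusted p of 0.899. In livers of ovariectomized females with estradiol Car3 lay at -1.45 to -0.92, below the placebo and the intact range, and it differed from placebo by -1.46 (adjusted p = 0.0165). Serpina6 lay at -1.06 to -0.13 with estradiol, below the placebo range of 0.36 to 1.10, and differed from placebo by -1.48 (adjusted p = 0.0115).

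Receptor genes differed little. Esr1 lay at -0.18, -0.18, -0.01, 0.13 and 0.16 in ovariectomized placebo livers, against -0.24, -0.01, 0.04, 0.06 and 0.52 in intact livers. The intact range contained all 5 placebo values, and the difference of -0.09 had a 95% confidence interval of -0.33 to 0.15. Of 23 genes of hormone receptors and coregulators, 0 passed in limma at either the adjusted or the unadjusted threshold, and their differences ran from -0.10 to 0.32. Over all probes 0.0339% passed the adjusted and 5.05% the unadjusted threshold, so 0 calls was near the share over all probes.

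**Figure D4:**
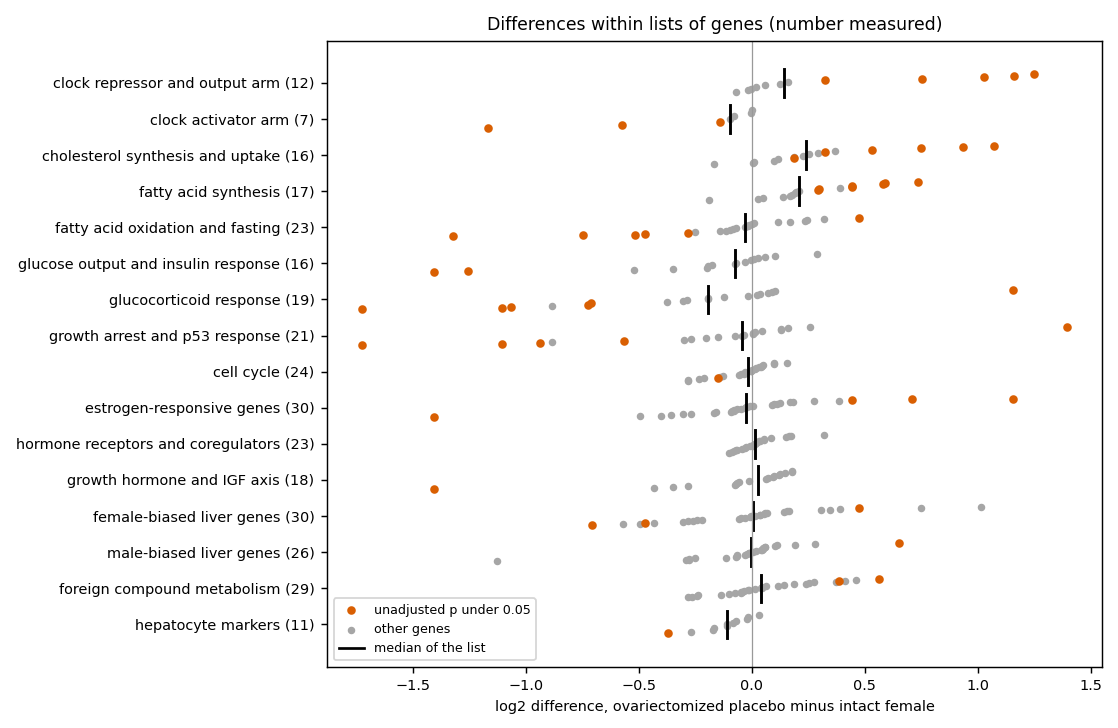
Log2 differences, ovariectomized placebo minus intact females, of the genes of 16 lists, with the number measured in brackets. Each point is a gene, orange where its unadjusted p is under 0.05, and black lines are medians. Medians lie between -0.20 for the glucocorticoid list and 0.24 for the cholesterol list, and the receptor and sex-biased lists have medians within 0.02 of 0.

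Most of the sex-biased liver genes measured changed after castration, while 0 of them were called by limma after ovariectomy. The question is whether loss of the ovaries moves genes that differ between male and female liver. Castration of males served as the comparison, with no animal shared. The lists were chosen with earlier results of these data known. The probe of largest SD over all arrays of the series, males included, stood for each gene. Both choices can favour large castration differences, so the counts for these lists are not independent evidence of a contrast between the operations. After ovariectomy 8 of all 23574 probes were called (0.0339%), so 0 calls among the sex-biased genes was near the share over all probes. Between castrated placebo and intact males 2856 probes were called (12.1%), 5.2% of all probes higher and 6.92% lower. The difference made by ovariectomy minus that made by castration was called for 1038 probes (4.4%), 655 of them positive (2.78%) and 383 negative (1.62%).

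Of 30 female-biased genes measured, 0 were called after ovariectomy by limma, with 1 higher and 2 lower at an unadjusted p under 0.05, and the median difference was 0.00. After castration 17 of these 30 were called higher and 1 lower, with a median of 0.90, and 12 of the 30 were called in the test of the difference. Slc22a26, an organic anion transporter gene, lay at 0.31 to 0.88 in ovariectomized placebo livers, against 0.17 to 0.95 in intact females, and at 0.13 to 1.22 in castrated placebo males, against -5.59 to -4.75 in intact males. The ovariectomy difference was -0.03, with a 95% confidence interval of -1.17 to 1.11, and the castration difference 5.81. This interval rests on the spread of all groups in the fit, among them ovariectomized DHT livers at -3.31 to 0.44. The cytochrome P450 genes Cyp2b9 and Cyp2b13 differed by 0.14 and 0.34 after ovariectomy and by 5.37 and 6.03 after castration. Hao2, a peroxisomal hydroxyacid oxidase gene, differed by 0.75 after ovariectomy and by 4.32 after castration, and Sult3a1, a sulfotransferase gene, by -0.43 and 3.41. A second probe of Cyp2b13 differed by 0.29 after ovariectomy and by 0.80 after castration, a second of Cyp2b9 by 0.04 and 0.34, and a second of Sult3a1 by 0.00 and 0.23.

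Most male-biased genes fell after castration. Of 26 measured, 0 were called after ovariectomy by limma, with 1 higher and 0 lower at an unadjusted p under 0.05, while 21 were called lower after castration, and 20 were called in the test of the difference. Hsd3b5 lay at -4.11 to -3.60 in ovariectomized placebo livers, against -4.71 to -3.47 in intact females, and at -4.32 to -3.84 in castrated placebo males, against 1.34 to 2.26 in intact males. Elovl3, a fatty acid elongase gene, differed by -0.01 after ovariectomy and by -4.42 after castration, and Cyp7b1 by 0.00 and -3.85. The 95% confidence intervals of the ovariectomy differences were -1.44 to 1.52 for Hsd3b5, -0.85 to 0.83 for Elovl3 and -1.38 to 1.39 for Cyp7b1. Differences inside these intervals are compatible with the values in this fit, which pools the spread of all groups of the series. The absence of a call thus does not show that these genes were unchanged. For Cyp7b1 the SD was 0.23 in ovariectomized placebo and 0.17 in intact females, against 2.16 in ovariectomized estradiol livers. For Hsd3b5 it was 0.21 and 0.49, against 1.96 in DHT livers of ovariectomized females. For Elovl3 it was 0.085 and 0.24, against 0.99 in those DHT livers. The intervals thus do not give the precision of the compared livers alone. A second Hsd3b5 probe was at 0.08 after ovariectomy and -0.10 after castration.

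**Figure D5:**
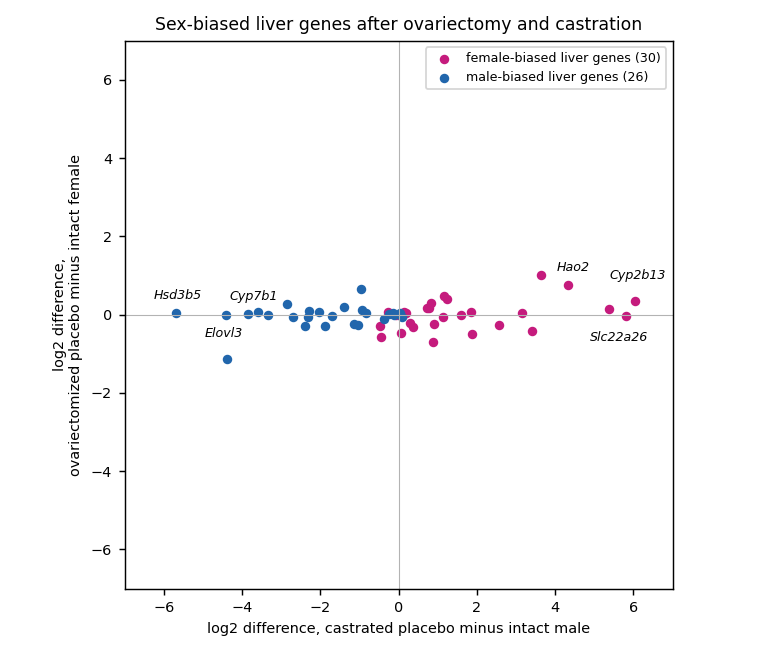
Log2 difference after ovariectomy (placebo minus intact females, vertical) against that after castration (placebo minus intact males, horizontal) for 30 female-biased and 26 male-biased liver genes, on equal axes. Each point is a gene. Points spread from -5.70 to 6.03 along the castration axis and from -1.13 to 1.01 along the ovariectomy axis.

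Of the 8 probes called after ovariectomy, those of Cdkn1a and Emb were also called in the test of the difference. Cdkn1a differed by -0.32 after castration (adjusted p = 0.438), and ovariectomy minus castration was -1.41 (adjusted p = 0.0157). Emb differed by -0.19 after castration, and its 2 differences were apart by -0.62 with an adjusted p of 0.0325. Pdk4 differed by -0.24 after castration, but the test of the difference gave an adjusted p of 0.0845. Tbc1d10a rose after castration too, by 0.61 (adjusted p = 0.00573), as did Bhlhe40 by 1.02 (adjusted p = 0.00665) and Serpina6 by 2.27 (adjusted p = 6.22e-07).

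Further genes separated the groups without passing the test over all probes. Defb1, an antimicrobial beta-defensin gene, lay at -0.10, 0.07, 0.22, 0.26 and 0.37 in ovariectomized placebo livers, against 0.76, 0.78, 1.11, 1.14 and 1.22 in intact livers. Its difference of -0.84 ± 0.21 had an adjusted p of 0.232, and after castration it differed by 0.74, so that the test of the difference gave -1.57 with an adjusted p of 0.00134. Clpx, which encodes the unfoldase of a mitochondrial protease, differed by -0.78 without overlap, and its second probe by -0.55 with overlap. Jdp2, a repressor of AP-1, and the sialidase gene Neu3 differed by -0.46 and -0.48. On the higher side were Nab2, a corepressor of EGR factors, at 0.70 (adjusted p = 0.0564), the F-box gene Fbxl8 at 0.57 (adjusted p = 0.084), S1pr5, a sphingosine-1-phosphate receptor gene, at 0.41 (adjusted p = 0.0687), and Cdkn2d, a cyclin-dependent kinase inhibitor gene, at 0.45 (adjusted p = 0.183). Nab2 and Fbxl8 were called without animal 20, at 0.79 and 0.65. Nab2 passed in 2 and Fbxl8 in 1 of the 10 limma fits that left out 1 animal. Their highest adjusted p values in these fits were 0.367 and 0.569.

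Markers of the cell types that a piece of liver can hold showed 0 calls in limma in each list. Over all probes the called share was 0.0339%, so 0 calls was near that share. At an unadjusted limma p under 0.05, 3.07% of all probes were higher and 1.98% lower. Of all 23574 probes, 12893 lay below 0 and 10681 above. Of 11 hepatocyte markers, 10 were below 0, with a median of -0.11, and Ttr, the transthyretin gene, was the 1 with an unadjusted p under 0.05, at -0.37. The mean over the 11 was -0.21 to 0.00 in ovariectomized placebo animals, against -0.12 to 0.11 in intact animals. The 16 Kupffer and myeloid markers lay between -0.19 and 0.15, and their mean was -0.39 to 0.01 in ovariectomized placebo animals, against -0.47 to 0.13 in intact animals. Among 14 T cell, B cell and MHC class II markers, Cd4 differed by -0.48 without overlap, with an adjusted p of 0.469, and the other 13 lay between -0.12 and 0.11. The 12 endothelial markers lay between -0.22 and 0.10. Of 7 cholangiocyte markers, 6 lay above 0, with a median of 0.20 and 1 higher at an unadjusted p under 0.05. Their mean was -0.23 to 0.33 in ovariectomized placebo animals, against -0.36 to -0.14 in intact animals. In the acute phase and complement list of 33 genes, Saa1, serum amyloid A, was at 1.64 in animal 16 and at -3.28 to -1.94 in its 4 group mates, against -3.23 to -2.24 in intact livers. Complement gene C2 differed by 0.34 without overlap, with an adjusted p of 0.271. The part of these markers in the differences above was not tested.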

How the data were processed

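Liver RNA of 40 mice was measured on 2-colour arrays, 1 per animal. The authors deposited 1 table of log10 ratios (liver in Cy5 over pool in Cy3, per the labels) for 23574 probes, with 0 missing values. Their background correction and normalization are not given in the sources used here. Values stop at 2 and -2, and 29 values on 16 probes lie there. The base was read from the Y-linked gene Eif2s3y, whose male mean ratio to the mixed-sex pool was 2 read as log10, 1.22 as log2 and 1.34 as natural log. Deposited ratios were multiplied by 3.32 to give log2 ratios. Signal over background was unknown, and precision is limited by the number of arrays. The platform annotation, matched to RefSeq gene identifiers, named 12662 probes of 10842 genes. The probe of largest SD over 40 arrays stood for a gene, and other probes are given where they differ.

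A model of 8 group means was fitted with limma 3.58.1 (lmFit, eBayes) in R 4.3.3 and checked on simulated data. It had 32 residual and 3.42 prior degrees of freedom, and the median residual SD was 0.146. P-values are two-sided and adjusted by Benjamini-Hochberg over all probes, called under 0.05. No batch, slide or date was given. Named genes are those called, up to 12 per direction by smallest p without overlap, up to 8 per gene list (clock and receptor lists in full), the sex check genes, and for the test of the difference the 5 highest and 5 lowest of these with called sex-biased genes. The comparison, the lists and the motifs were chosen with earlier results of these data known. Alternatives changed the samples in the fit, normalization, array weights, empirical Bayes, probe filter, probe choice and animals.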

Additional observations from a re-analysis of the deposited data

Results flagged for a closer look

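Among 66 genes in the 2 groups, 132 sets of 5 animals, 10 had an animal whose gap to the nearest other exceeded 0.71 of the group's range, Dixon's limit, which chance gives to about 1 set in 20. Animal 20 of the ovariectomized placebo group accounted for 5 of them. It was highest for Arntl (0.73) and G6pc (0.87) and lowest for Fdft1 (-0.95), Nr3c1 (-0.36) and Ppara (-0.05). In the same group animal 16 was highest for Saa1 (1.64). Intact animal 2 was highest for Igfbp1 (1.85) and Hilpda (0.70) and lowest for Sp5 (-0.95), and intact animal 4 was lowest for Car1 (-0.70).

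A further 15 genes differed between ovariectomy and castration in the limma test of the difference itself, ovariectomy minus castration, at an adjusted p under 0.05. These values are differences between the 2 changes and do not compare levels after the 2 operations. The change was lower with ovariectomy (a negative difference) for Slc22a26 (-5.84), Cyp2b13 (-5.69), Cyp2b9 (-5.23), Sult3a1 (-3.84), Hao2 (-3.58), Gadd45b (-1.94), Defb1 (-1.57), Cdkn1a (-1.41), Neu3 (-0.84) and Emb (-0.62). It was higher with ovariectomy for Hsd3b5 (5.74), Elovl3 (4.40), Cyp7b1 (3.86), Car1 (1.23) and C2 (0.59).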

How the results depend on the processing

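The count of 8 probes depended on the setting. It was 1 (Cdkn1a) with only the 2 groups in the fit (1499 at an unadjusted p under 0.05), 16 with quantile normalization, 17 with ratios scaled to one median absolute deviation per array, 31 with array weights, 19 among the probes whose SD over all arrays was above the median, and 8 with robust eBayes or without probes at the limit of the scale. All 8 probes were called under the last 6 of these settings. Leaving out 1 animal gave 2 to 23 probes: 2 without animal 1, 2, 4, 16, 17 or 19, 3 without animal 3, 5 without 18, 9 without 5 and 23 without 20. Without animals 20 and 3 together, chosen after the values were seen, it was 19. The count of 1038 in the test against castration was 530 with quantile normalization, 513 with one median absolute deviation per array and 3007 with array weights, and 778 to 1243 without 1 animal. Signs turned for genes near 0: Cyp7b1 was -0.35 with quantile normalization, -0.00338 with array weights and -0.070 to 0.096 without 1 animal or without 20 and 3. Hsd3b5 was -0.36 and Slc22a26 0.035 with quantile normalization, and without 1 animal or without 20 and 3 they ran from -0.16 to 0.18 and from -0.15 to 0.046. Elovl3 was 0.00606 with one median absolute deviation per array, 0.042 without animals 20 and 3, and -0.11 to 0.037 without 1 animal, and Esr1 -0.17 to 0.021 without 1 animal. The causes were not tested. No paired analysis was possible because each animal number occurs in 1 group. With 5 animals a group, 0.186 on the log2 scale was the limit for an unadjusted p of 0.05 at a probe of median spread. A call needed a larger difference.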
